A study of Apostichopus japonicus with 12 samples.

Results

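A set of 98 features of the sea cucumber Apostichopus japonicus was higher in the respiratory tree under low dissolved oxygen, both without and with added heat, than in libraries of the control group or under heat alone. The set was drawn from a table of 59494 features by their measured levels. Total RNA was depleted of ribosomal RNA and sequenced in 12 libraries, 3 for each of 4 treatments. The groups were a control group, a thermal group held at 26 °C, a hypoxic group held at 2 mg/L dissolved oxygen, and a combined group held at 26 °C and 2 mg/L. For control animals neither value is stated in the sources used here, nor is the oxygen of the thermal or the temperature of the hypoxic treatment, so both were taken to be as in the controls. All libraries came from the same tissue. Whether each replicate was its own animal is not stated, and the spread between libraries may be technical.

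A feature was included when its lowest value among the 6 hypoxic and combined libraries exceeded its highest value among the 6 control and thermal libraries. Its mean on the scale of log2(FPKM + 0.5) also had to be at least 1 higher in the hypoxic and in the combined group than in the control group, and the thermal and control means had to differ by less than 1. The highest group mean had to reach 2 FPKM (fragments scaled to the length of the feature and to the size of the library). The rule thus used the levels in all 12 libraries, so every difference from the control group given below is a description with no test. The rule did not name the difference between hypoxic and combined libraries, which was tested across all features. It limited that difference all the same, since both groups had to lie at least 1 above the control group, and it favoured a small spread among the low-oxygen libraries, so the test is not independent of the choice of members.

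The respiratory trees of sea cucumbers are branched, thin-walled tubes that open into the cloaca and are filled with sea water by pumping, which makes them a main site of oxygen uptake. In animals the transcriptional response to low oxygen runs in large part through hypoxia-inducible factor, whose alpha subunit is marked for breakdown by prolyl hydroxylases when oxygen is plentiful. Targets known from mammals include glycolytic enzymes, glucose transporters and the prolyl hydroxylases themselves. The table gives AJAP and MSTRG identifiers without gene names, and 0 of them were found in the gene table that RefSeq gives for assembly ASM3797524v1. No function is therefore given to any feature here, lists of hypoxia, heat shock and tissue marker genes could not be applied, and the tissue label could not be checked against markers.

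Reads recovered from the FPKM values numbered between 20384461 and 28424598 per library. MSTRG features held between 22.7% and 30.88% of them, at 23.46% to 25.54% in the hypoxic group and 25.11% to 27.33% in the combined group. Members were well covered, with a median of 7948 reads over the 12 libraries, and 81 of the 98 had at least 10 reads in every library. Counts of 0 occurred in 5 members, always in control or thermal libraries, and no member had 0 reads in all 3 control libraries.

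The 98 members together took 0.2275% ± 0.00769 of the summed FPKM of a control library (SD, n = 3), 0.3363% ± 0.0644 in the thermal, 0.7751% ± 0.0855 in the hypoxic and 0.7965% ± 0.0917 in the combined group. The shares ran from 0.2187% to 0.2327% in control and from 0.2718% to 0.4006% in thermal libraries. They ran from 0.6769% to 0.8329% in hypoxic and from 0.7407% to 0.9023% in combined libraries. A large part of these sums came from the 5 members at the highest level. Without them the shares ran from 0.1373% to 0.1553% in control and from 0.1609% to 0.2468% in thermal libraries. The hypoxic shares then ran from 0.4502% to 0.5452% and the combined shares from 0.4255% to 0.5676%. The low-oxygen libraries were set apart by construction, while the hypoxic and combined shares overlapped. In bulk tissue, more RNA per cell and more cells of a type cannot be told apart. On the log2 scale the median member was 1.57 higher in the hypoxic and 1.44 higher in the combined group than in the control group, where the median of all 46763 features tested was -0.08 and -0.02. Most members were moderately higher, since 53 reached a mean of the 2 differences of 1.5, 23 reached 2, 8 reached 2.5 and 1 exceeded 3.

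**Figure D1:**
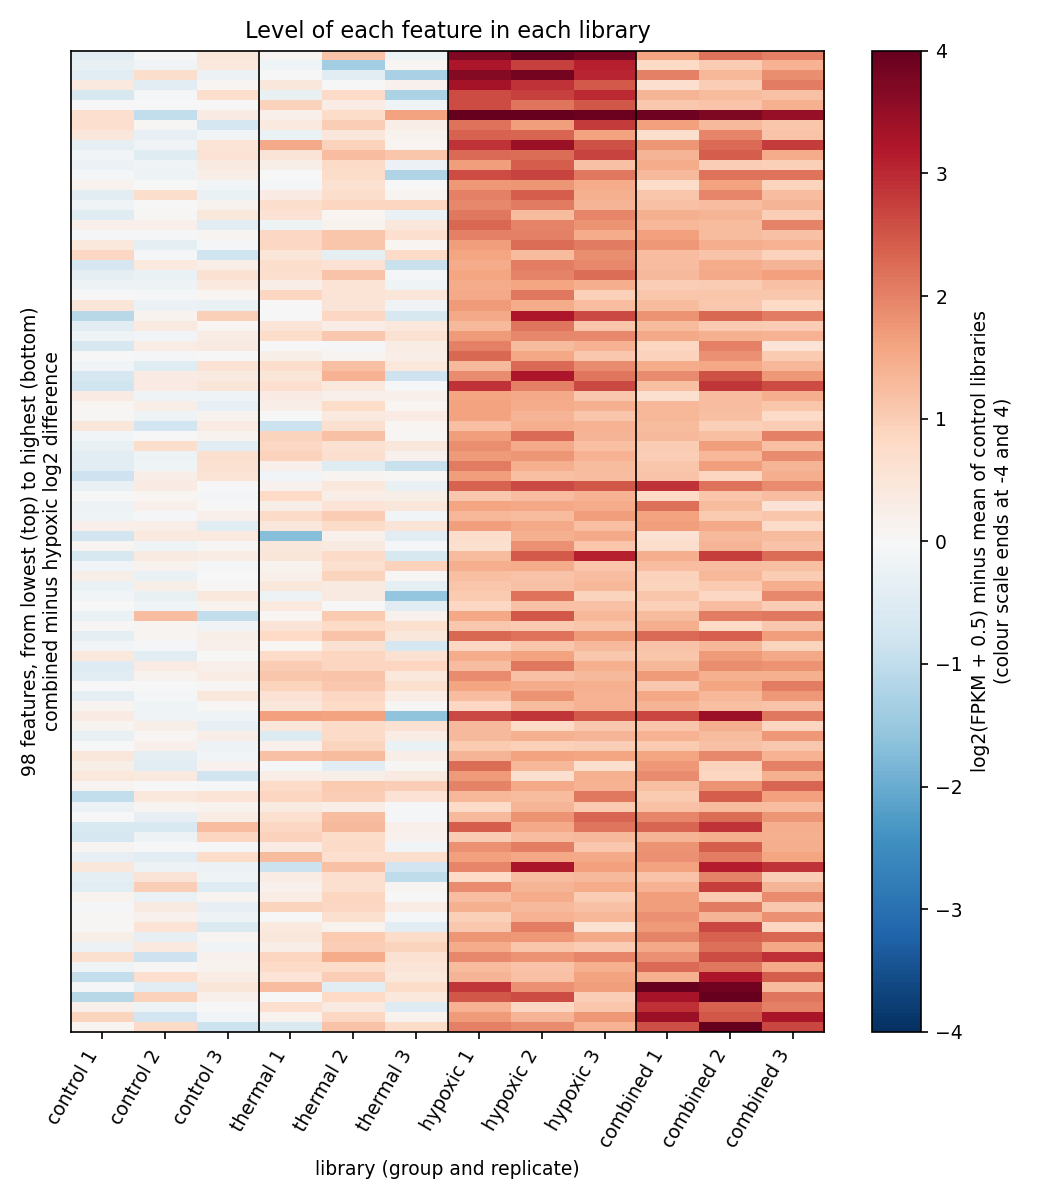
Each row is 1 of the 98 features and each column 1 library, coloured by log2(FPKM + 0.5) minus the mean of the 3 control libraries. Rows run from features lower in the combined than in the hypoxic group (top) to the opposite (bottom), and the difference ranges from -2.10 to 1.80.

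Separation of the 6 low-oxygen libraries from the other 6 was uncommon across the table. Of the features tested, 257 (0.550%) had all low-oxygen libraries above the other libraries, and 288 (0.616%) had them all below. All conditions of the rule were met by 0.210%, and nothing is read from the members' own share of 100%, which the rule fixed. In most members the separation was narrow. The gap between the lowest low-oxygen and the highest other library had a median of 0.24 on the log2 scale and reached 1.89. The lowest low-oxygen value was at least 1.5 times the highest other value in 9 members and at least 2 times in 2 members.

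AJAP identifiers made up 75 of the members (76.53%) and MSTRG identifiers 23 (23.47%). Among the 32739 tested features with a group mean of at least 2 FPKM, AJAP identifiers made up 57.52%. Put the other way, 0.3983% of such AJAP features and 0.1654% of such MSTRG features were members. The classes were not matched for level, and a rule that allows no overlap favours features with more reads. No difference between the classes in response to low oxygen is therefore read from these shares. Feature lengths follow from the recovered reads and differed by class in kind. They were multiples of 3 in 92.83% of tested AJAP and 33.39% of tested MSTRG features with reads in more than 3 libraries, so AJAP lengths are for the most part coding lengths. Among members, 68 of 75 AJAP and 10 of 23 MSTRG lengths were multiples of 3. AJAP members had a median length of 1314 bases, against 984 for AJAP features at that level, and MSTRG members 1074 bases against 1093. The rule did not name length, but at a given FPKM a longer feature holds more reads. It can thus favour longer features, and no trait of the members is read from these medians. AJAP members were also more abundant than MSTRG members, with median FPKM levels of 39.6 and 5.14 over the low-oxygen libraries. The corresponding medians over all AJAP and MSTRG features at that level were 8.80 and 3.01 FPKM. The rule required members to be high in these libraries, so nothing is read from their excess there. Over the control and thermal libraries the medians were 15.2 FPKM for AJAP and 1.15 FPKM for MSTRG members. All AJAP and MSTRG features at that level had medians of 9.18 and 3.38 FPKM there. The median mean rise was 1.52 for AJAP and 1.64 for MSTRG members on the log2 scale.

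AJAP19978 had the largest mean difference from control of all members, and the widest gap on the scale of log2(FPKM + 0.5). Its recovered length was 549 bases. In replicate order, its control libraries stood at 20.4, 6.08 and 15.9 FPKM, with 14.6, 21.2 and 39.2 in the thermal, 399, 611 and 200 in the hypoxic and 194, 175 and 146 in the combined libraries. Its lowest low-oxygen library was 3.73 times its highest other library in FPKM, a ratio exceeded by AJAP01797 (5.32, on few reads), and every hypoxic library lay above every combined one. The log2 difference from control was 4.80 in the hypoxic and 3.71 in the combined group, and 0.84 in the thermal group.

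A pair of MSTRG features with low levels outside low oxygen had mean rises of 2.97 and 2.63 on the log2 scale. MSTRG.13702 stood at 0.114, 0.340 and 0.651 FPKM in the control, 0.399, 1.37 and 0.230 in the thermal, 10.5, 19.2 and 11.2 in the hypoxic and 2.04, 3.29 and 2.87 in the combined libraries. MSTRG.87467 stood at 0.402, 1.52 and 0.544 FPKM in the control, 0.756, 0.434 and 0 in the thermal, 15.4, 17.2 and 9.75 in the hypoxic and 4.51, 2.58 and 4.04 in the combined libraries. In both, the combined libraries lay between the other low-oxygen libraries and the rest without touching either. The log2 differences from control were 4.02 and 1.92 for MSTRG.13702 and 3.52 and 1.73 for MSTRG.87467 in the hypoxic and combined groups. Their lengths were 1587 and 1582 bases.

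AJAP08714 averaged 82.9 ± 11.4 FPKM under low oxygen alone and 93.7 ± 43.7 FPKM with heat added (SD, n = 3). It stood at 16.1, 11.4 and 11.2 FPKM in the control, 82.0, 94.8 and 72.0 in the hypoxic and 82.7, 142 and 56.5 in the combined libraries. Its thermal libraries were split, at 41.0, 40.05 and 3.87 FPKM, so replicate 3 lay below all control libraries and the other two above them. MSTRG.19729, the longest of these at 3506 bases, was at 1.85, 2.29 and 3.98 FPKM in the control, 8.41, 5.31 and 2.83 in the thermal, 22.1, 33.3 and 17.4 in the hypoxic and 10.03, 14.5 and 20.8 in the combined libraries. Its hypoxic and combined libraries overlapped.

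The remaining 3 of the 8 members with the largest mean rise were higher in the combined than in the hypoxic group on average, each with 1 low-oxygen library apart from its group. AJAP11158 stood at 6.58, 10.98 and 3.18 FPKM in the control, 3.99, 14.1 and 10.6 in the thermal, 26.4, 24.3 and 16.9 in the hypoxic and 39.7, 285 and 42.4 in the combined libraries. Combined replicate 2 was far above the other two there, although these also exceeded every hypoxic library. MSTRG.42726, only 289 bases long, was at 0.157, 0 and 0.447 FPKM in the control, 1.10, 0 and 0.631 in the thermal, 4.42, 1.88 and 1.64 in the hypoxic and 12.5, 9.27 and 1.11 in the combined libraries. Its combined replicate 3 rested on 7 reads and exceeded thermal replicate 1, with 9 reads in a deeper library, by 0.02 on the log2 scale. MSTRG.55299 was at 0.436, 3.30 and 1.79 FPKM in the control, 1.52, 2.98 and 2.19 in the thermal, 10.7, 11.7 and 3.46 in the hypoxic and 19.1, 34.3 and 8.32 in the combined libraries, so hypoxic replicate 3 lay just above control replicate 2.

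**Figure D2:**
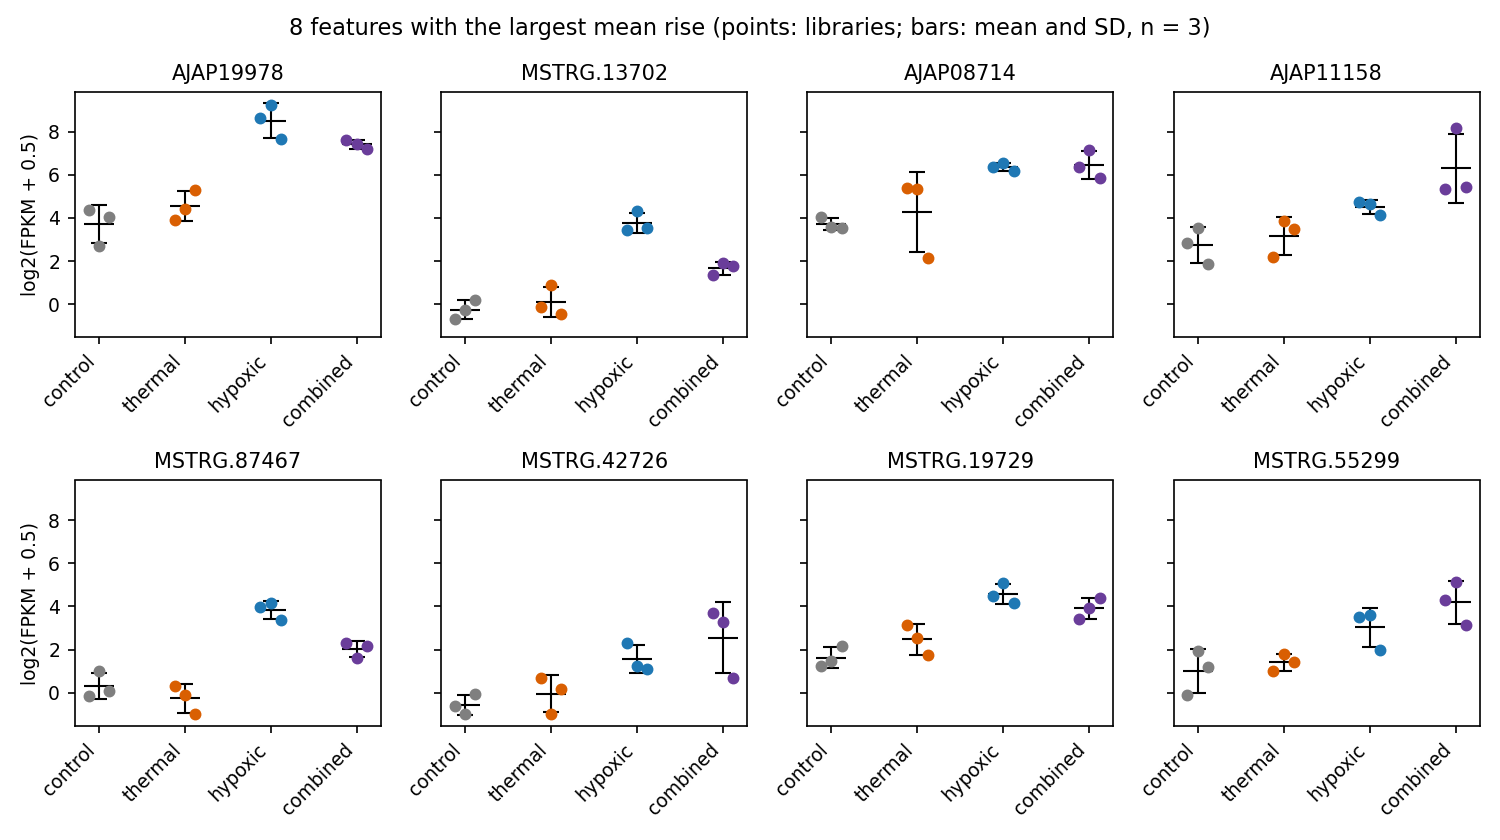
The panels give log2(FPKM + 0.5) in each library (points) with the mean and SD of each group (bars, n = 3) for the 8 members with the largest mean rise. AJAP19978 stands far above its other libraries in all low-oxygen libraries, while MSTRG.42726 is separated by 0.02.

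The 5 members chosen for their level were AJAP19978 and 4 others with mean rises between 1.26 and 1.95 on the log2 scale. AJAP15472 was the most abundant, with a recovered length of 327 bases. It stood at 250, 167 and 228 FPKM in the control, 289, 442 and 352 in the thermal, 722, 711 and 611 in the hypoxic and 836, 1093 and 1053 in the combined libraries. The 4 groups did not overlap and followed in that order. AJAP00825 had the same order without overlap, at 96.8, 112 and 120 FPKM in the control, 185, 180 and 155 in the thermal, 261, 240 and 296 in the hypoxic and 523, 474 and 316 in the combined libraries.

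AJAP07230 was at 121, 186 and 207 FPKM in the control, 363, 368 and 226 in the thermal, 618, 380 and 408 in the hypoxic and 546, 445 and 449 in the combined libraries. Its thermal replicate 2 came within 0.05 on the log2 scale of the lowest low-oxygen library. AJAP12447, at 216, 133 and 129 FPKM under control conditions and 158, 222 and 142 in the thermal libraries, was at 499, 437 and 361 in the hypoxic and 372, 326 and 267 in the combined libraries. Its control and thermal libraries overlapped, as did its hypoxic and combined libraries.

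After AJAP19978, the widest gaps on the log2 scale belonged to AJAP01797 and AJAP05616. AJAP01797 was hardly detected outside low oxygen, at 0, 0.272 and 0.120 FPKM under control conditions and 0.195, 0.336 and 0 in the thermal libraries, which held at most 3 reads each. It was at 2.69, 3.37 and 3.00 FPKM in the hypoxic and 4.09, 2.27 and 1.79 in the combined libraries, on 14 to 31 reads. AJAP05616 was at 21.7, 22.1 and 14.1 FPKM in the control, 16.3, 20.7 and 26.0 in the thermal, 94.1, 76.4 and 67.0 in the hypoxic and 47.8, 45.9 and 77.2 in the combined libraries. Its gap was 0.81 on the log2 scale, against 1.45 for AJAP01797.

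At the edges of the rule the choice was fine-grained. The smallest gaps inside were 0.0001 for AJAP23941, with 28.99 FPKM on either side, and 0.0022 for AJAP17115. Outside stood MSTRG.95555 and MSTRG.133681 with a gap of 0. Both were at 0 FPKM in all control and thermal libraries and in their lowest low-oxygen library, a tie and not a narrow miss. For the hypoxic difference, AJAP06675 (1.0016) and AJAP30288 (1.0495) lay inside and AJAP08804 (0.9763) and AJAP14571 (0.9735) outside. For the combined difference, AJAP12447 (1.0424) and AJAP17115 (1.0447) lay inside and AJAP14465 (0.9986) and AJAP09931 (0.9816) outside. The thermal bound kept AJAP08237 (0.9876) and MSTRG.124711 (0.9576) and left out MSTRG.20616 (1.0308) and MSTRG.40501 (1.0657). The level minimum kept MSTRG.67830 (2.08 FPKM) and AJAP12413 (2.37 FPKM) and left out AJAP20880 (1.62 FPKM) and MSTRG.43620 (1.52 FPKM).

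Whether heat altered the level reached under low oxygen was asked by comparing the combined with the hypoxic group. The combined mean was higher in 43 members (43.88%, against 53.43% of all features tested) and lower in 55. The median log2 difference was -0.13, against 0.05 over all features tested. The median over members ran from -0.20 to -0.04 when single libraries were left out and was -0.19 with median-of-ratios scaling. By class, the median was -0.13 for AJAP members, against 0.01 for AJAP features with a group mean of at least 2 FPKM, and -0.13 for MSTRG members, against 0.16 for such MSTRG features. The part of the shift in MSTRG reads between these groups in that difference was not tested. In 70 members (71.43%) the difference was smaller than 0.5 in size, as it was in 57% of all features tested. No member passed limma's test across all features at an adjusted p of 0.05 (0 of 98, median SE 0.36), where 16 features in all (0.0342%) passed, 10 higher (0.0214%) and 6 lower (0.0128%) in the combined group. At an unadjusted p under 0.05 there were 16 members (16.3%, against 10.5% of all features tested), 5 higher (5.10% against 5.25%) and 11 lower (11.2% against 5.23%). Limma's voom on the recovered reads also called 0 members (1 feature in all, 0.00214%), with 17 (17.3%, against 10.1%) at an unadjusted p under 0.05. Nothing is read from these shares, because the rule used the same 6 low-oxygen libraries and favoured members with a small spread there. These counts do not show that the levels were alike, since an SE of 0.36 leaves differences of the size seen in several members unresolved. The count of 16 over all features was 44 without thermal replicate 2, 4 and 7 without combined replicates 1 and 2, and 2 without thermal replicate 1. Leaving out hypoxic replicates 1, 2 or 3 gave 3, 1 or 1, and leaving out control replicates 1, 2 or 3 gave 3, 10 or 3.

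AJAP19542 came closest to the threshold among members. It stood at 28.7, 32.2 and 47.8 FPKM in the control, 31.7, 13.2 and 37.1 in the thermal, 340, 238 and 309 in the hypoxic and 62.2, 72.7 and 92.6 in the combined libraries. Every combined library was thus well below every hypoxic one and above the remaining libraries. The combined minus hypoxic difference was -1.96 on the log2 scale (SE 0.35, limma's adjusted p = 0.086), and adjusted p-values ranged from 0.024 to 0.247 over the alternatives. It passed only without thermal replicate 2 (adjusted p = 0.024), where 44 features (0.0941%) passed in all.

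MSTRG.128108 had the same shape, at 24.5, 13.6 and 19.8 FPKM in the control, 26.0, 18.9 and 21.2 in the thermal, 192, 142 and 106 in the hypoxic and 30.1, 37.3 and 79.7 in the combined libraries. Its difference was -1.66 (SE 0.36, adjusted p = 0.126, range 0.063 to 0.359). MSTRG.13702 and MSTRG.87467, whose values are given above, had differences of -2.10 (SE 0.47, adjusted p = 0.133, range 0.0869 to 0.365) and -1.79 (SE 0.48, adjusted p = 0.203, range 0.139 to 0.46) in limma's test. These 4 members had the lowest combined minus hypoxic differences, and none passed.

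In the opposite direction AJAP01676 stood at 15.5, 4.59 and 7.495 FPKM in the control, 9.01, 14.7 and 9.003 in the thermal, 27.4, 21.7 and 28.2 in the hypoxic and 91.8, 47.7 and 83.1 in the combined libraries. Its combined libraries all exceeded its hypoxic ones, with a difference of 1.46 (SE 0.40, limma's adjusted p = 0.214, range 0.154 to 0.456). MSTRG.90547 was at 0.584, 0.315 and 0.415 FPKM in the control, 0.980, 0.692 and 0.147 in the thermal, 1.94, 1.16 and 1.53 in the hypoxic and 6.52, 4.23 and 3.25 in the combined libraries. It also showed no overlap, with a difference of 1.31 (SE 0.45, limma's adjusted p = 0.32, range 0.267 to 0.58). AJAP11158 had the highest difference, 1.80 (SE 0.69, limma's adjusted p = 0.383, range 0.3 to 0.685), which was 0.87 without combined replicate 2. For MSTRG.55299 the difference was 1.16 (SE 0.62, limma's adjusted p = 0.548, range 0.375 to 0.817), 0.64 without hypoxic replicate 3 and 0.69 without combined replicate 2, and its hypoxic and combined libraries overlapped.

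All combined libraries lay above all hypoxic ones in 7 members (7.14%, against 8.84% of all features tested) and below them in 12 (12.2%, against 8.12%). Besides those described, the 7 included AJAP16504 and MSTRG.84117, with differences of 0.23 and 0.55. The 12 included AJAP15437, at 44.0, 48.1 and 57.1 FPKM in the hypoxic and 18.3, 17.2 and 15.9 in the combined libraries, and AJAP23626, at 13.5, 9.80 and 12.6 against 4.46, 4.57 and 5.75. They also included AJAP13022, MSTRG.54000, AJAP10586, AJAP19129 and AJAP09603, with differences between -0.86 and -0.27. These features were picked after their values were seen.

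**Figure D3:**
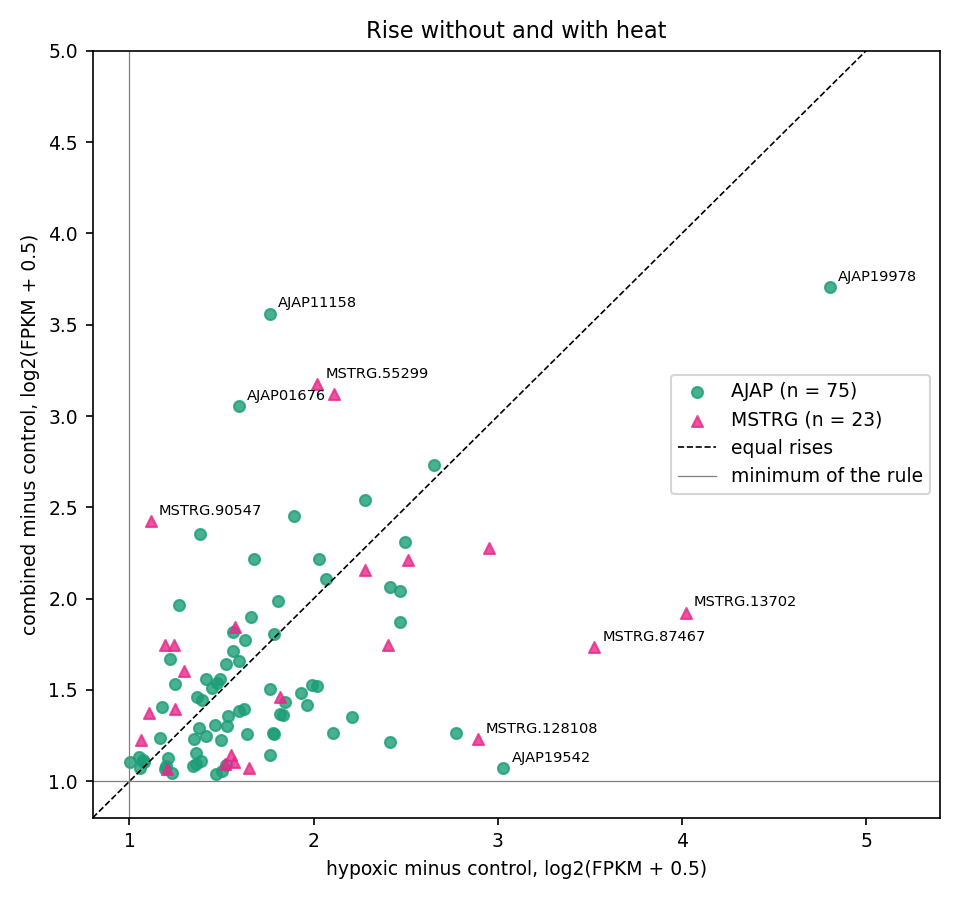
Each point is a member, placed by its hypoxic minus control (horizontal) and combined minus control (vertical) difference in log2(FPKM + 0.5). Grey lines mark the minimum of 1 set by the rule and the dashed line equal differences, and AJAP19542, MSTRG.13702 and MSTRG.87467 lie farthest below it.

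The rule bounded the thermal minus control difference on either side but did not fix its sign. The thermal mean was above the control mean in 86 of 98 members (87.76%, against 54.03% of all features tested) and below it in 12. The median difference was 0.38 on the log2 scale, against 0.06 over all features tested. With median-of-ratios scaling the 2 medians were 0.31 and 0.01. The median over members was 0.25 without thermal replicate 2 and 0.53 without thermal replicate 3, and that over all features was 0.01 without control replicate 3. The same control libraries entered the rule's other differences, so this count is not independent of the choice of members. All thermal libraries lay above all control libraries in 20 members (20.4%, against 8.42% of all features tested) and below them in 0 (against 6.45%), and nothing is read from these shares because the rule used the contrast. All 20 carried AJAP identifiers, among them AJAP15472, AJAP00825 and AJAP07230. No trait of the class is read from this, since the class share among all features so separated is not given here. MSTRG members were also fewer (23) and lower, with a median of 1.15 FPKM over control and thermal libraries, against 15.2 FPKM for AJAP members. The group means ran in the order control, thermal, combined, hypoxic in 47 members and control, thermal, hypoxic, combined in 39. In the other 12 the thermal mean was lowest.

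The thermal libraries were not alike over the members. Thermal replicate 2 was the highest of its group in 61 members (62.24%), against 31.45% of all features tested, and thermal replicate 3 was the lowest in 64. On the log2 scale the median member was 0.27 above its thermal mean in replicate 2 and 0.27 below it in replicate 3, while the medians of all features tested were -0.02 and 0.03. Thermal replicate 2 was also the highest of the 6 control and thermal libraries in 52 members, so it set the gap there. In the other groups the shares were more even, with combined replicate 2 highest in 44.9% of members (against 35.39% of all features tested), control replicate 3 in 43.88% (against 26.72%) and hypoxic replicate 2 in 40.82% (against 27.27%). Combined replicate 1 was the lowest of the 6 low-oxygen libraries in 29 members and combined replicate 3 in 23. The part of thermal replicate 2 in the choice of members shows in the count of features that met the rule without it, 247, and without combined replicate 1 the count was 182.

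**Figure D4:**
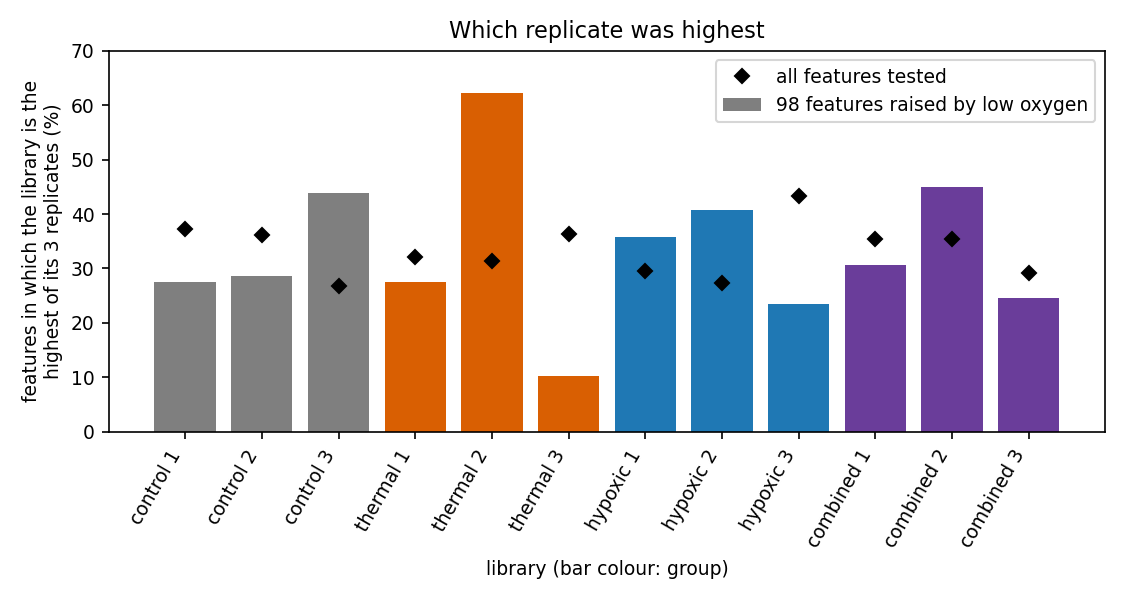
Bars give the percentage of the 98 members in which a library was the highest of its 3 replicates, and diamonds the same over all features tested. Thermal replicate 2 stands at 62.24% and thermal replicate 3 at 10.2%.

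The 98 members were chosen on all 12 libraries and could not be read in unused data. Instead each library was left out in turn, other sets of 104 to 247 features were chosen by the rule on the remaining 11, and the library left out was then looked up. Of the 131, 121 and 122 features chosen without hypoxic replicates 1, 2 and 3, the library left out lay above all control and thermal libraries in 73.28%, 80.17% and 80.33%. Over all features tested this held in 12.11%, 11.21% and 14.64%. For combined replicates 1, 2 and 3 the shares were 51.65%, 78.15% and 74.4%, against 14.81%, 16.9% and 12.37%. A control library left out lay below all low-oxygen libraries in 89.42%, 85.25% and 82.93% of features chosen without it, against 13.7%, 14.22% and 16.71%. For thermal replicates 1, 2 and 3 the shares were 70.07%, 40.89% and 78.45%, against 10.78%, 9.61% and 11.46%. The library left out fell on its treatment's side least often for thermal replicate 2 (40.89%) and combined replicate 1 (51.65%). All 12 shares exceeded those over all features, but the latter are no measure of chance here. The share that a library without any response would reach among features chosen on the other 11 libraries was not measured. No support for the set is therefore drawn from these shares. Of the 98 members, between 81 and 97 were chosen again in these rounds.

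**Figure D5:**
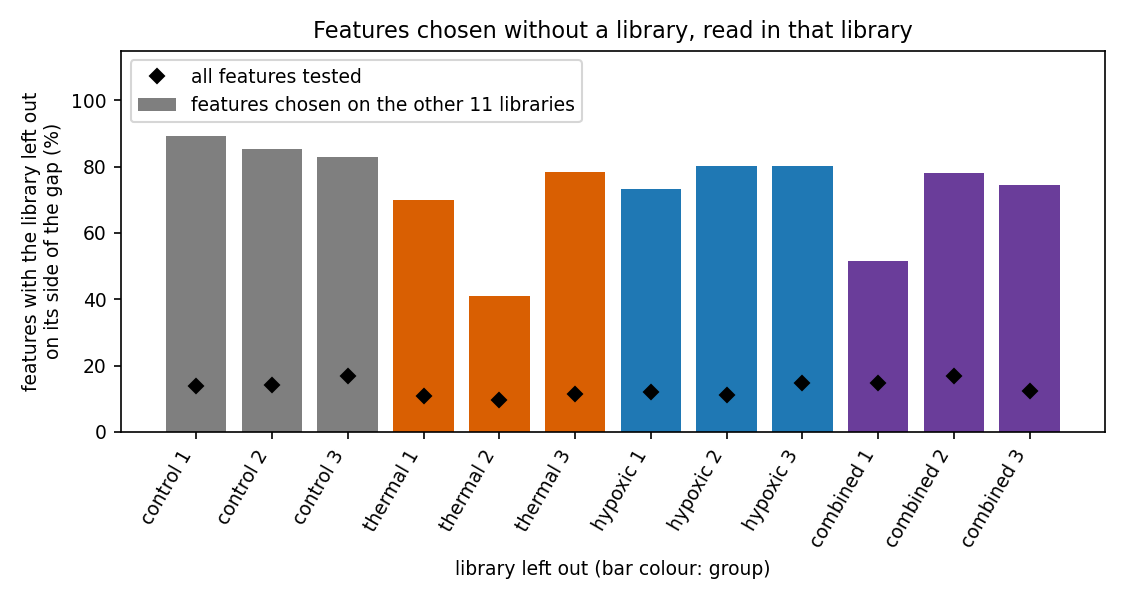
Bars give the percentage of features chosen on 11 libraries in which the library left out lay on the side of the gap that its treatment has in the rule, and diamonds the same over all features tested. The bars run from 40.89% to 89.42% and the diamonds from 9.61% to 16.9%.

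The mirrored rule, for features lowered by low oxygen at either temperature, found 114 features, and the same rule for heat at either oxygen level found 98. Neither set can share a feature with the members, because the rules set limits on the hypoxic difference that exclude each other. AJAP identifiers made up 72.81% of the lowered features, against 76.53% of the members and 43.88% of those raised by heat. The median level in the 6 control and thermal libraries was 11.6 FPKM for the members, 10.1 FPKM for the lowered features and 3.71 FPKM for those raised by heat. The low-oxygen levels were 30.2, 2.88 and 4.70 FPKM. The rules fixed the direction between these levels for the members and the lowered features, so nothing is read from it. For the features raised by heat, each side mixes libraries with and without heat. The 3 sets come from overlapping comparisons of the same libraries, and their makeup was compared with no test.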

How the data were processed

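The deposited FPKM values were computed by the authors and given for each library in a column of its own. Per the labels' protocols, ribosomal RNA was removed and directional libraries were made. The tools named in the submitters' processing notes are Bowtie2 (2.2.3), TopHat2 (2.0.12), Cufflinks and DESeq (1.16), with no role stated. Genome build, annotation and the use of strand in counting are likewise not stated in the sources used here, so reads of overlapping or near-identical features may be shared or lost.

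Whole reads and feature lengths were recovered as the totals and lengths that make every FPKM value a whole number of reads. All 59494 features came out whole within 0.001 reads, among them 52959 with reads in 4 or more libraries. With wrong totals 0 of 3000 features drawn from these 52959 did, over a shorter range of lengths. Features with reads in fewer libraries come out whole more easily, so their lengths are less certain. FPKM was analysed as log2(FPKM + 0.5), which understates changes of low features. All 98 members were among the 46763 features that reached 0.5 FPKM in 3 or more libraries. Combined minus hypoxic was tested on these with limma 3.58.1 (R 4.3.3, 4 group means, variance trend, Benjamini-Hochberg adjustment, threshold 0.05). The fit was also run on simulated reads, drawn with the same dispersion (spread beyond counting noise) for every feature. Real features need not share it, so that run does not give the power of the test in these data. Python 3.11.15, numpy 2.4.6, pandas 2.3.3, numba 0.67.0 and matplotlib 3.10.9 did the rest. Precision is limited by 3 libraries per group.

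Named members were, by rule, the 8 with the largest mean rise, the 5 at the highest level, the 5 MSTRG members with the largest mean rise, the 4 highest and 4 lowest by combined minus hypoxic, and the 3 with the widest gap. Members, rule and lists were chosen with earlier results of these data known. Alternatives were other pseudocounts, scalings, filters and thresholds of the rule, a fit on 2 groups, a replicate block, limma's voom on recovered reads, and leaving out each library.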

Additional observations from a re-analysis of the deposited data

How the results depend on the processing

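The number of features meeting the rule, 98, was 33 with differences of at least 1.5, 56 with a thermal bound of 0.5, and between 104 and 247 when 1 library was left out, with 247 without thermal replicate 2 and 182 without combined replicate 1. Other pseudocounts, scalings, level minimums and no thermal bound gave 83 to 136. The count of features called between the combined and hypoxic groups, 16, was 3 with no filter, 8 with a filter at 2 FPKM, 3 with quantile normalization, 4 in a fit on those 2 groups, 1 with voom and between 1 and 44 without 1 library; the causes were not tested. Members called stayed at 0, or 1 without thermal replicate 2 (range 0 to 1). A replicate block gave 7 features in all and changed no call among members. Deviations of same-numbered hypoxic and combined libraries correlated at -0.05, -0.014 and -0.08, and between these groups no library correlated best with its own number. Over the other pairs of groups same-numbered libraries correlated at -0.056 to 0.086, with control against combined and thermal against hypoxic libraries best with their own number, as a hint from the data only. No correlation passed 0.1, so the numbers were not taken as pairs. Of 392 other values under alternatives, 390 kept within the spread or on their side of the threshold. The others were AJAP19542 without thermal replicate 2 and the mean rise of MSTRG.42726, 3.91 at a pseudocount of 0.1. These bounds were wide, so the count is no measure of stability. Medians over many features were held to the median replicate SD of a member in the hypoxic group (0.29). The median thermal minus control difference over members, from 0.25 to 0.53 without single libraries, thus counted as kept. Named members that did not pass counted as kept when they again did not pass. Depth limits AJAP01797 and MSTRG.42726 most.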

Other observations

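The gap between libraries was the condition that removed most features: 550 met every other part of the rule. The hypoxic difference alone left out 18 features, the combined difference 39, the thermal bound 9 and the level minimum 5.

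Deviations of members from their group means were weakly alike across libraries. The mean pairwise correlation over the 12 libraries was 0.131 among the 98 members and 0.012 among all features tested, a description over points that share libraries and depth. Members were chosen on these same libraries and had more reads, with a median total of 7948 against 813. The 2 correlations are therefore not matched, and no shared regulation is read from them. Replicate spread on the log2 scale was smaller in members under low oxygen, with a median SD of 0.29 in the hypoxic and 0.32 in the combined group, than in the control (0.40) and thermal (0.39) groups. Over all tested features with a group mean of at least 2 FPKM the medians were 0.44, 0.47, 0.49 and 0.47. The rule favours a small spread, so these values support no comparison.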
